A study of Mus musculus with 8 samples.

Results

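The genes described here are 7 components of the Notch pathway: the receptors Notch1, Notch2 and Notch3, the DNA-binding factor Rbpj, and the target genes Hes1, Dtx1 and Nrarp. They were chosen by symbol, and every probe set annotated to a single one of these symbols was used, which gave 12 of the 28898 probe sets with 1 gene symbol. The 7 genes are among 17097 genes on the arrays. Of the 7, 4 (Notch1, Notch2, Dtx1 and Rbpj) were bright enough to be tested, among 11583 genes tested in all.

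Expression was measured on 8 arrays of mouse bone marrow progenitors, 2 for each of 4 groups. The groups were all-lymphoid progenitors (ALP) and prepro NK cells (preproNK), each from wild type (WT) mice and from mice with an Nfil3 knockout (KO). Nfil3 is a bZIP transcription factor needed for natural killer (NK) cell development, and the series title names its requirement in that process as the subject. The mice of all 4 groups, controls included, carried the Id2-GFP reporter, a fluorescent readout of Id2 activity, and cells were sorted from lineage-depleted marrow and lysed uncultured. The sources used here do not give the strain, the age, the form of the knockout allele or the number of mice per sample. The p-values therefore measure only how far these samples spread, in part perhaps for technical reasons. Replicate 1 and replicate 2 denote the 2 processing dates.

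Notch receptors are cleaved after binding a ligand on a neighbouring cell, and the freed intracellular domain enters the nucleus, joins Rbpj on DNA and turns Rbpj from a repressor into an activator. Hes1, Dtx1 and Nrarp are classical genes activated by this complex. In lymphoid progenitors Notch1 signalling directs cells to the T cell lineage in the thymus, and it is kept low in the marrow, where B cells form.

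The arrays followed their labels in the main. Flt3 and Dntt, which mark ALP, lay between 8.10 and 10.87 (log2 expression value, the unit of all levels below) on the 4 ALP arrays and between 3.79 and 4.76 on the 4 preproNK arrays, while Id2 lay between 5.94 and 6.94 in ALP and between 8.37 and 10.68 in preproNK. Not every marker of the preproNK list followed: Cd244a gave -1.98 for preproNK minus ALP (limma adjusted p = 0.02), and Itga4 differed by -0.10. Ncr1, which defines mature NK cells, was below the array median (taken over all probe sets) on all 8 arrays. Nfil3 itself was 6.89 and 5.50 in WT ALP, 3.41 and 4.15 in KO ALP, 4.75 and 4.74 in WT preproNK, and 3.84 and 3.57 in KO preproNK. The WT preproNK replicate 2 array stood apart. Its correlations with the other arrays across tested genes were 0.504 to 0.747, with 0.621 for its own group partner, and 310 genes reached a level of 8 there against 682 to 1498 on the other 7 arrays. Xist, a female-specific RNA, was 7.94 to 9.30 on the other 3 replicate 2 arrays and 3.10 to 4.20 on the remaining 5 arrays. WT preproNK replicate 2 was also low in the Y-linked Eif2s3y (4.19) and Kdm5d (4.25), below its median of 4.27. These lay between 6.35 and 7.04 on the replicate 1 arrays, so the sex of WT preproNK replicate 2 could not be read. Sex-linked RNA and processing date therefore cannot be told apart between the replicate numbers in WT ALP, KO ALP and KO preproNK.

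In short, Dtx1 was the only gene of the 7 that passed the test in the main fit, which did not pair arrays by processing date. It did so in the comparisons of preproNK with ALP, in the knockout and as the mean over both genotypes. The Dtx1 level was near the array median in ALP of both genotypes and high on both KO preproNK arrays. Notch1 was lower on all 4 preproNK arrays than on all 4 ALP arrays. Its mean difference of -1.89 missed the threshold in the main fit (limma adjusted p = 0.0598). With the processing date as a block it passed (adjusted p = 0.0103), where 852 of all 11583 genes were called. Hes1, Nrarp and Notch3 stayed below the array median on all 8 arrays, while Notch2 and Rbpj gave no call in the 6 comparisons over all 8 arrays. The threshold for a call was an adjusted p of 0.05 from limma, with Benjamini-Hochberg adjustment over the 11583 genes tested.

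**Figure D1:**
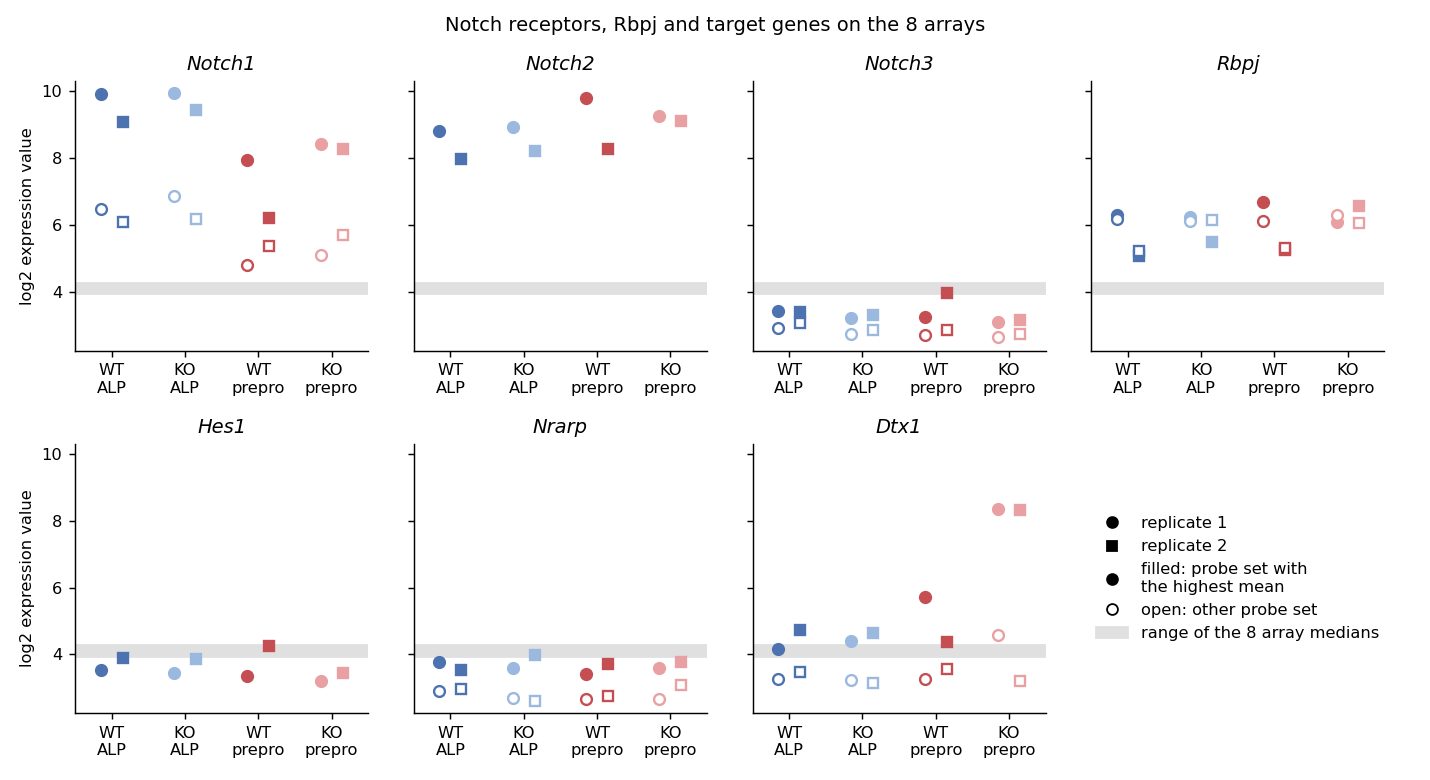
Log2 expression values (vertical axis) of the 7 genes on the 8 arrays, 2 per group (horizontal axis), with a point for every probe set and the array median over all probe sets for comparison. The Dtx1 probe set that represents the gene reads 8.36 and 8.31 on the KO preproNK arrays, and both Notch1 probe sets are lower on the 4 preproNK arrays than on the 4 ALP arrays.

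The Notch1 receptor, the family member required for T cell commitment, lies on chromosome 2 at 26457902 to 26503822 (GRCm38.p6). Its brighter probe set read 9.92 and 9.08 in WT ALP, 9.94 and 9.44 in KO ALP, 7.95 and 6.21 in WT preproNK, and 8.41 and 8.26 in KO preproNK. Every preproNK array was below every ALP array, and the lowest value was on the array that stood apart. The second Notch1 probe set read 6.49 and 6.10 in WT ALP, 6.85 and 6.18 in KO ALP, 4.79 and 5.38 in WT preproNK, and 5.09 and 5.71 in KO preproNK. This probe set too had no preproNK array as high as the lowest ALP array.

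Tested on the brighter probe set, the Notch1 level in preproNK minus that in ALP was -1.89 on the log2 scale as the mean over both genotypes (SE 0.43, 95% interval -2.88 to -0.91, limma adjusted p = 0.0598), just short of the threshold. In that comparison 391 of the 11583 genes, or 3.38%, were called. With the processing date as a block the same difference of -1.89 was called (adjusted p = 0.0103). Without WT preproNK replicate 1 it was -2.33 (adjusted p = 0.00562), and without WT preproNK replicate 2 it was -1.46 (adjusted p = 0.0291), so the call depends on which arrays enter. Within WT the difference was -2.43 (SE 0.60, adjusted p = 0.267), with -1.98 in replicate 1 and -2.88 in replicate 2. The WT value was called without WT preproNK replicate 1, at -3.30 (adjusted p = 0.0181), which leaves the array that stood apart as the lone WT preproNK sample. It was -1.56 (adjusted p = 0.239) without WT preproNK replicate 2. Within KO it was -1.36 (SE 0.60, adjusted p = 0.511), with -1.53 and -1.18 in the 2 replicates. With the block and without WT preproNK replicate 2, Notch1 was called in both genotypes, at -1.81 in WT and -1.36 in KO. That fit leaves a lone WT preproNK array, and calls over all genes rose in it too. The second probe set gave -1.21 in WT and -1.12 in KO.

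The Notch2 receptor, known in the immune system for its part in marginal zone B cells, lies on chromosome 3 at 98013538 to 98150367. It had 1 probe set, which read 8.81 and 7.97 in WT ALP, 8.92 and 8.21 in KO ALP, 9.79 and 8.27 in WT preproNK, and 9.25 and 9.12 in KO preproNK. Values of the 2 populations overlapped in WT, and in KO both preproNK arrays were above both ALP arrays. The mean difference of preproNK from ALP was 0.63 (SE 0.41, limma adjusted p = 0.627), opposite in sign to that of Notch1. The group means of Notch2, from 8.39 in WT ALP to 9.19 in KO preproNK, did not pass the test in any of the 6 comparisons. With the processing date as a block and without WT preproNK replicate 2, the mean difference was called, at 0.87. That fit leaves a lone WT preproNK array, and calls over all genes rose in it too.

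Notch3, a receptor best known in vascular smooth muscle and in pre-T cells, lies on chromosome 17 at 32120820 to 32166896. Its brighter probe set ranged from 3.10 to 3.96 over the 8 arrays and its second from 2.64 to 3.05, each below that array's median (3.93 to 4.27) everywhere. The highest value of the brighter probe set, 3.96, was on WT preproNK replicate 2, the array with the highest median. Notch3 therefore had no value above background by this measure in any of the 4 groups and was not tested.

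Rbpj, the factor through which all Notch receptors act on DNA, lies on chromosome 5 at 53555779 to 53657445. Its brighter probe set read 6.30 and 5.06 in WT ALP, 6.24 and 5.50 in KO ALP, 6.69 and 5.24 in WT preproNK, and 6.09 and 6.56 in KO preproNK. In each group but KO preproNK the replicate 2 array was the lower one, and the groups overlapped. The second probe set ranged from 5.22 to 6.30, with its lowest values also on the WT replicate 2 arrays. The mean difference of preproNK from ALP was 0.37 (SE 0.44, limma adjusted p = 0.869). Group means of Rbpj ran from 5.68 in WT ALP through 5.87 in KO ALP and 5.97 in WT preproNK to 6.33 in KO preproNK, and no neighbours in that order differed beyond their spread.

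Hes1, a basic helix-loop-helix repressor and the best known Notch target, lies on chromosome 16 at 30065357 to 30067796. Its single probe set read 3.53 and 3.90 in WT ALP, 3.43 and 3.86 in KO ALP, 3.35 and 4.25 in WT preproNK, and 3.21 and 3.43 in KO preproNK. All 8 values were below the array median, by as little as 0.02 on the nearest array. Nrarp, a small ankyrin repeat protein that limits Notch signalling after being induced by it, lies on chromosome 2 at 25180758 to 25183339. Its brighter probe set ranged from 3.41 to 3.99 and its second from 2.60 to 3.09, again below the median on all 8 arrays. Neither gene was tested. For both, a change below the level the arrays could measure was not detectable here.

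Dtx1 encodes Deltex, a ubiquitin ligase that binds the intracellular part of Notch, and the gene is itself activated by Notch in T cell progenitors. It lies on chromosome 5 at 120680203 to 120711867. The promoter windows of Dtx1 and Notch1 are shown because these 2 genes differed most between the populations. Each holds 250 bases before and 50 after a transcription start, from RefSeq on GRCm38.p6, on the minus strand (chr5:120711620-120711919 for Dtx1 and chr2:26503773-26504072 for Notch1). Capitals mark CACNAG, the N-box bound by HES repressors, on either strand.
Dtx1: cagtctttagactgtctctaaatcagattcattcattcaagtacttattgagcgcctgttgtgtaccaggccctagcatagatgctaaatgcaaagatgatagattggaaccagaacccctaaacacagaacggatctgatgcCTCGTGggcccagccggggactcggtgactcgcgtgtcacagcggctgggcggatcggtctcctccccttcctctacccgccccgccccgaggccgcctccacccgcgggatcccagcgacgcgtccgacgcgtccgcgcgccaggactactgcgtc
Notch1: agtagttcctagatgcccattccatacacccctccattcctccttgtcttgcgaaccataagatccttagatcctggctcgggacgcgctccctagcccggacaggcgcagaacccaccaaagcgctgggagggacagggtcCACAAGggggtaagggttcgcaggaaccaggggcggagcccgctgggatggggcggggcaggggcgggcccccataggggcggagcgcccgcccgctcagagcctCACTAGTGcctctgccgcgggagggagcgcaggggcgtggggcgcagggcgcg

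RefSeq windows were found for 6 of the 7 genes (7 windows, 2 of them for Rbpj, with Hes1 unmatched). On both strands, the Rbpj motif GTGGGAA was in none of the 7 and in 6.38% of all 32851 windows. The NFIL3 motifs TTATGTAA and TTACGTAA were likewise in none, against 0.938% and 0.119% of all windows. CACNAG was in 42.5% of all windows. It had 1 match in Dtx1, at offset -107 from the start, and 3 in Notch1, of which 2 overlap on opposite strands next to the start. Notch2 held 1 match, Notch3 and Nrarp 2 each, and Rbpj 0. These are matches of letters in a short window only.

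The Dtx1 level on the probe set that represents the gene was 4.15 and 4.74 in WT ALP, 4.41 and 4.65 in KO ALP, 5.73 and 4.37 in WT preproNK, and 8.36 and 8.31 in KO preproNK. Both KO preproNK arrays were far above the other 6, while the values of the other groups overlapped. The 4 ALP values and WT preproNK replicate 2 (4.37 against a median of 4.27) were close to their array medians, while WT preproNK replicate 1 read 5.73 against a median of 4.02. In KO, Dtx1 rose from ALP to preproNK by 3.80 on the log2 scale (SE 0.50, 95% interval 2.64 to 4.96, limma adjusted p = 0.0129), from 4.53 ± 0.17 to 8.33 ± 0.04 (SD, n = 2 each) or 14.0-fold. Both replicates showed it, with 3.95 and 3.65. In that comparison 203 genes, or 1.75%, were called.

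In WT the same step gave 0.60 (SE 0.50, adjusted p = 0.923), with 1.58 in replicate 1 and -0.37 in replicate 2, so the 2 dates differed in sign. Of all genes 0.095% were called in WT. As the mean over both genotypes Dtx1 rose by 2.20 (SE 0.35, 95% interval 1.38 to 3.02, adjusted p = 0.0194). The call in KO was lost without any 1 of the 4 KO arrays, with differences of like size. In these fits nearly all calls over all genes were lost too, so the loss was not particular to Dtx1. The Dtx1 difference was 3.68 without KO ALP replicate 1 and 3.92 without KO ALP replicate 2. It was 3.78 without KO preproNK replicate 1 and 3.83 without KO preproNK replicate 2. The call in the mean was lost without any of these 4 arrays or WT ALP replicate 1, where calls over all genes fell as well.

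The second Dtx1 probe set did not show the same step. It read 3.26 and 3.46 in WT ALP, 3.23 and 3.15 in KO ALP, 3.25 and 3.55 in WT preproNK, and 4.59 and 3.21 in KO preproNK. Of these values only that of KO preproNK replicate 1 was above its array median. Each probe set interrogates its own stretch of transcript, and their positions were not used here. The result for Dtx1 therefore rests on 1 probe set.

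The effect of the Nfil3 knockout was taken within each population. In ALP none of the 4 tested genes differed beyond its error, with values of 0.08 for Dtx1 (SE 0.50), 0.19 for Notch1 (SE 0.60), 0.17 for Notch2 (SE 0.58) and 0.19 for Rbpj (SE 0.62), all at adjusted p = 1. In that comparison 0% of genes were called by limma, and 5 genes were at an unadjusted p under 0.05. That is far fewer than such a p gives with no effect on any gene, so the test was strict here. The spread was pooled over all 4 groups, the WT preproNK array that stood apart included. An absence of a knockout effect in ALP is therefore not shown. In preproNK, KO minus WT was 3.28 for Dtx1 (SE 0.50, 95% interval 2.13 to 4.44), with 2.63 and 3.93 in the 2 replicates. Its unadjusted p of 0.000194 ranked 11 among the genes tested, and its adjusted p of 0.185 missed the threshold. Here too 0% of genes were called, with 625 at an unadjusted p under 0.05, of which Dtx1 was the only one of the 7.

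The Dtx1 difference between KO and WT preproNK was not called in the fit over all arrays. Whether it was called in other fits depended on the WT preproNK arrays and on the block. Without WT preproNK replicate 1 the difference was 3.96 (limma adjusted p = 0.0105), and 2532 genes were called. Without WT preproNK replicate 2, the array that stood apart, it was 2.61 and not called. With the processing date as a block besides it was 2.47 and called, and calls over all genes rose there too. Every one of these settings kept KO above WT. Notch1 was higher in KO than in WT preproNK by 1.26 (SE 0.60, 95% interval -0.14 to 2.65, adjusted p = 0.613), with 0.46 and 2.05 in the 2 replicates. The Notch1 value was 2.13 (adjusted p = 0.0231) without WT preproNK replicate 1 and 0.39 (adjusted p = 1) without WT preproNK replicate 2, or 0.64 (adjusted p = 0.961) with the block besides. Its second probe set gave 0.31. On the probe sets tested, Notch2 (0.16, SE 0.58) and Rbpj (0.36, SE 0.62) differed by less than their errors. In both the 2 replicates were opposite in sign. The second Rbpj probe set gave 0.47 (SE 0.40, limma adjusted p = 0.67), with 0.18 and 0.75 in the 2 replicates.

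The interaction asks whether the knockout effect differs between the populations. For Dtx1 it was 3.20 (SE 0.71, 95% interval 1.56 to 4.84), with an unadjusted p of 0.00206 and an adjusted p of 1. It was 1.07 for Notch1 (SE 0.85), -0.02 for Notch2 (SE 0.82) and 0.17 for Rbpj (SE 0.88), all at adjusted p = 1. In this comparison 0% of genes were called by limma and 183 were at an unadjusted p under 0.05. A different Dtx1 response in the 2 populations is therefore not shown after adjustment. The interaction, the knockout comparison in preproNK and the step in KO share the KO preproNK arrays, so the Dtx1 values in them are not independent.

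**Figure D2:**
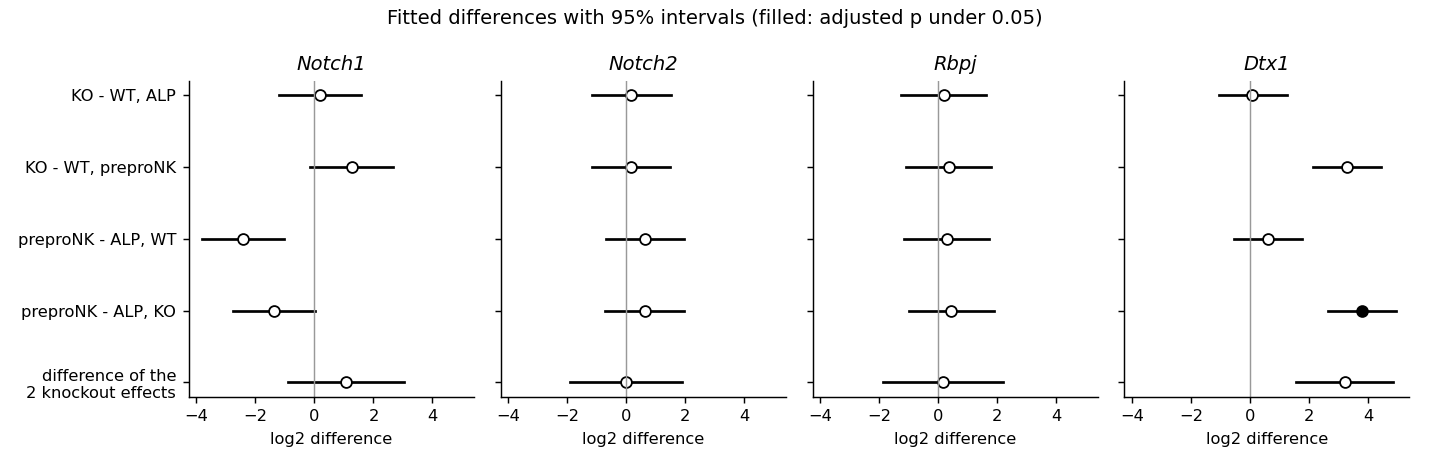
Log2 differences (horizontal axis) with 95% intervals for the 4 tested genes in both knockout comparisons, both steps from ALP to preproNK and the interaction (the difference of the knockout effects), from the limma fit over 8 arrays. Filled points passed the threshold, which holds for Dtx1 in the step in KO (3.80, interval 2.64 to 4.96). The Notch1 interval for the step in WT is -3.82 to -1.03.

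The rest of the pathway was described with 89 further genes in lists by role, of which 78 had a probe set with 1 symbol and 67 were tested. In the mean comparison of preproNK with ALP, 6 of the 67 rose and 2 fell, and the median difference was 0.05 against -0.01 over all genes tested. The 3.38% called among all genes is the figure to set beside these 8. The lists were chosen with earlier results of these data known and hold T cell genes such as Cd3e and Bcl11b. The comparison therefore gives no measure of enrichment. In KO, 3 of the 67 rose (1.75% of all genes were called), and in WT, in both knockout comparisons and in the interaction limma called 0 of them, while 852, 5, 625 and 183 of all genes were at an unadjusted p under 0.05 in those comparisons. The medians of the 67 were -0.07 in WT, 0.14 in KO, 0.17 for the knockout in ALP, 0.40 for the knockout in preproNK and 0.28 for the interaction. With the processing date as a block 14 of the 67 were called in the mean, 8 in KO and 2 in WT. Of all 11583 genes tested, that block called 852, 449 and 67 in the same order. A fit without 1 array leaves a lone array in a group, so only the direction of its counts is given. In the mean, calls among the 67 and over all genes fell without any 1 ALP or KO preproNK array. Both rose there without either WT preproNK array. In KO both fell without any 1 of the 4 KO arrays and rose without either WT preproNK array. In WT both rose without either WT preproNK array. For the knockout in preproNK both rose without WT preproNK replicate 1.

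Among ligands, 2 of 7 were tested and 1 rose. Jag1, a Jagged ligand, read 3.83 and 5.05 in WT ALP, 3.70 and 4.25 in KO ALP, 5.57 and 5.71 in WT preproNK, and 7.21 and 6.71 in KO preproNK. On this brighter probe set all 4 preproNK arrays were above all 4 ALP arrays. It rose by 2.09 in the mean (SE 0.34, limma adjusted p = 0.02) and by 2.98 in KO (SE 0.49, adjusted p = 0.0306). On 2 of the 4 ALP arrays it was below the median, and with these at the median the differences were at least 2.00 and 2.87. The second Jag1 probe set was below the median on all 4 ALP arrays and on both WT preproNK arrays. It rose by 2.11 in KO but by only 0.13 in WT, where the 2 populations overlapped. With its values below the median set to the median, its differences were 0.56 in the mean and 1.03 in KO. The higher Jag1 level in WT preproNK therefore rests on 1 probe set. Of the genes for cleavage, 1 of 8 tested rose. Psen2, a catalytic subunit of gamma-secretase, lay between 7.02 and 7.79 in ALP and between 8.33 and 9.87 in preproNK and rose by 1.98 (SE 0.39, adjusted p = 0.0392).

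Receptor turnover had 1 call among 11 tested genes. Dtx4, a second Deltex ligase, fell by 1.36 on the log2 scale (SE 0.28, adjusted p = 0.0459), from between 7.17 and 7.91 in ALP to between 5.51 and 6.85 in preproNK. Neither Dtx4 (-0.72, adjusted p = 0.822) nor Dtx1 passed in WT alone. Dtx4 and Hes6 are named beyond the 6 lowest p-values, after their values were seen.

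Of the 12 tested genes among other targets, 4 rose and 1 fell. Cd3e, a signalling chain of the T cell receptor, was 2.93 to 3.48 in ALP, below the array median throughout, and read 8.48 and 6.59 in WT and 9.99 and 10.45 in KO preproNK. It was at least 29.2-fold higher in preproNK, with the ALP arrays set at their medians, and rose by 5.72 in the fit (SE 0.43, limma adjusted p = 0.00135). Bcl11b, the factor that fixes T cell commitment, was 4.11 to 5.40 in ALP and 6.94 to 8.82 in preproNK and rose by 3.53 (SE 0.43, adjusted p = 0.0073). Il2ra, the alpha chain of the interleukin 2 receptor, rose by 4.06 (SE 0.67, adjusted p = 0.0199), and Trib2, a pseudokinase, by 2.30 (SE 0.35, adjusted p = 0.0149). On these brighter probe sets Il2ra was below the median on 2 of the 4 ALP arrays and Trib2 on 3. With those set at the median the differences were at least 3.79 and 2.12. The second probe sets of both genes were below the median on all 4 ALP arrays and on WT preproNK replicate 2. With values below the median set to it, they gave 1.36 for Il2ra and 1.98 for Trib2. In KO alone Cd3e rose by 7.12 (adjusted p = 0.00386), or by at least 6.25 with the ALP arrays set at their medians, and Bcl11b by 4.23 (adjusted p = 0.0196). Hes6, a relative of Hes1 that can oppose it, fell by 1.91 on the log2 scale (SE 0.41, adjusted p = 0.0496). The targets Hes5, Hes7, Hey2 and Ptcra were, like Hes1, too dim to be tested.

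Lists of the remaining roles held no call in the fit over all 8 arrays without the block. Lfng, a glycosyltransferase that modifies Notch receptors, had the smallest p of the 6 glycosylation genes, with 7.55 and 6.34 in WT ALP, 7.72 and 6.64 in KO ALP, 9.25 and 6.25 in WT preproNK, and 9.91 and 9.51 in KO preproNK. Its mean difference was 1.67 (SE 0.66, limma adjusted p = 0.282), and only WT preproNK replicate 2 was not above the ALP arrays. Lfng was called in the mean step with the processing date as a block, and without WT preproNK replicate 2 with or without that block. Poglut1, which adds O-glucose to Notch, gave -0.47 (adjusted p = 0.844). Among 12 corepressor genes the lowest p-values belonged to the histone deacetylase Hdac2 (-1.20, adjusted p = 0.204) and to L3mbtl3 (-1.23, adjusted p = 0.264), which binds Rbpj. Leaving out WT preproNK replicate 1 gave calls for Hdac2 and Poglut1, both lower in preproNK, and the block without WT preproNK replicate 2 one for L3mbtl3, also lower. Of 5 coactivators the acetyltransferases Kat2a (-0.47, adjusted p = 0.564) and Kat2b (0.38, adjusted p = 0.708) came first. Of 6 genes for ligand endocytosis Neurl1b (-0.87, adjusted p = 0.503) and Mib2 (-0.42, adjusted p = 0.741), both ubiquitin ligases, came first. The repressors Ikzf1 (-0.40, adjusted p = 0.893) and Zbtb7a (0.12, adjusted p = 0.968), which restrain Notch in marrow, and the receptor Notch4 (-0.04, adjusted p = 0.988) lay near 0.

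**Figure D3:**
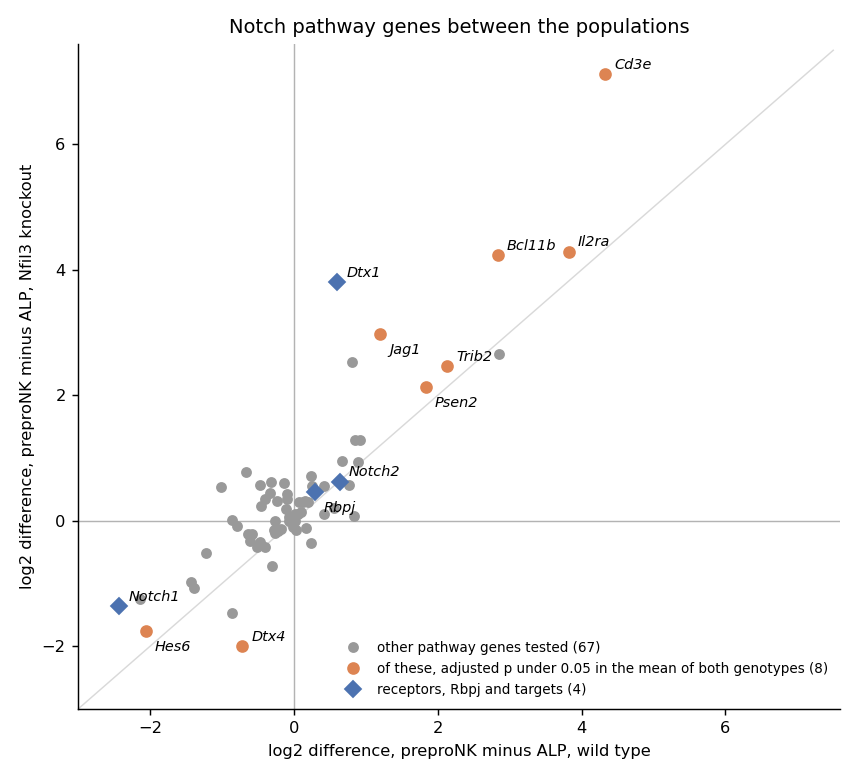
Log2 difference of preproNK minus ALP in WT (horizontal axis) against the same in KO (vertical axis) for the 67 tested pathway genes, with the 8 called in the mean of both genotypes in orange, and for Notch1, Notch2, Rbpj and Dtx1 as diamonds. The diagonal marks equal differences. Dtx1 (0.60 in WT, 3.80 in KO) is far above it, and Notch1 (-2.43 in WT, -1.36 in KO) is at the lower left.

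The summed linear levels of the T, NK and B lineage lists were highest on the KO preproNK arrays, as Dtx1 was, but not every marker followed. Of 12 T cell markers 11 were on the arrays, and their summed linear level was 335 to 447 on the ALP arrays, 1931 and 848 in WT preproNK, and 5150 and 4531 in KO preproNK. On the KO preproNK arrays all 11 were above the array median, against 10 and 11 in WT preproNK and 6 to 8 in ALP. Cd8a (5.81 and 5.75 in KO preproNK, 5.57 to 6.13 in ALP) and Cd8b1 (4.37 and 4.14, against 3.46 to 4.86) lay within their ALP ranges, and Ptcra, which marks early thymocytes, ranged from 2.67 to 3.03. Il2ra, of the same list of 5 early thymocyte markers, rose as given, and the list's sum was 124 to 194 in ALP, 706 and 175 in WT preproNK, and 601 and 277 in KO preproNK. The T cell list shares Cd3e and Bcl11b with the target list. The 8 NK cell markers summed to 485 and 253 in WT preproNK and to 702 and 640 in KO preproNK, against 282 to 345 in ALP, with Ncr1 near background. Of these, Ncr1 (3.28 and 3.28 in KO preproNK, 3.89 and 4.01 in WT) and Eomes (4.38 and 4.46, against 4.04 and 5.73) had no higher mean in KO. In the B lineage list, whose sum was 1629 and 1285 in KO preproNK against 419 and 278 in WT preproNK, Blk carried the difference (10.51 and 10.13 against 8.32 and 6.63), while Ebf1 and Pax5 were below the median on both KO arrays. The mean log2 value of that list was highest on WT preproNK replicate 2 (5.32, against 5.25 and 5.21 in KO preproNK). The ILC and dendritic lists differed between ALP and preproNK, though not on every array or in every marker. The 4 of 7 ILC markers on the arrays summed to 136 to 179 in ALP, 3602 and 1000 in WT preproNK, and 1897 and 2261 in KO preproNK, with Il13 between 3.42 and 4.05 throughout. The 4 of 6 dendritic markers summed to 631 to 1268 in ALP, 731 and 154 in WT preproNK, and 206 and 280 in KO preproNK. WT preproNK replicate 1 was thus inside the ALP range. Itgax, Tcf4 and Irf8 were lower on all 4 preproNK arrays. Ccr9 went the other way in the mean, with 9.23 and 5.76 in WT preproNK and 6.91 and 5.81 in KO preproNK. The part of these cells in the Dtx1 and Cd3e differences was not tested. In such bulk samples a change in cell makeup and a change in RNA per cell cannot be told apart.

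The genes whose levels over the 8 arrays followed each tested gene most closely were listed by Pearson's r, as a description. The 8 arrays share the group structure and the array that stood apart. For Dtx1 these were Plekhf1 (r = 0.996), an endosomal adaptor, Sox13 (0.992), an SRY-box factor active in gamma delta T cells, and Klrc1 (0.99), a chain of the NKG2 receptors whose probes may be shared with its paralogs. Klrc1 read 6.73 and 7.02 in KO preproNK and 2.58 to 4.10 on the other 6 arrays. Without WT preproNK replicate 2 the r of the 3 genes over 7 arrays was 0.996, 0.992 and 0.995, at ranks 3, 8 and 4. For Notch1 they were Agtrap (0.992), Snrpf (0.991) and Lsm3 (0.989), at 0.979, 0.975 and 0.972 over the 7 arrays. Their ranks there were 29, 37 and 48, so which genes came first for Notch1 depended on the array that stood apart. Notch2 was followed by Snapc3 (0.987), Nfat5 (0.98) and Isg20 (0.976), and Rbpj by Ess2 (0.97), Vezf1 (0.97) and Xaf1 (0.968). Over the 7 arrays these ranked 5, 12 and 7 for Notch2 and 9, 3 and 16 for Rbpj. Among the tested genes themselves Notch2 and Rbpj had r = 0.92, and Notch1 and Dtx1 had r = -0.22 over 8 arrays and -0.76 over 7.

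**Figure D4:**
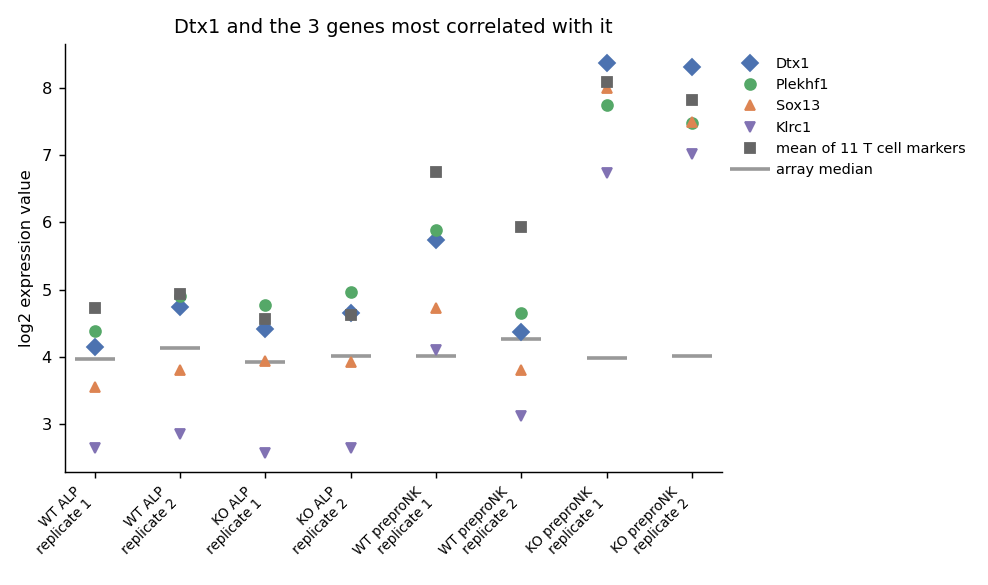
Log2 expression values (vertical axis) of Dtx1, of the 3 genes most correlated with it and of the mean of 11 T cell markers on the 8 arrays (horizontal axis), with each array's median as a grey bar. Every one of these is highest on the 2 KO preproNK arrays, where the marker mean is 8.09 and 7.82.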

How the data were processed

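For 8 one-colour Affymetrix arrays the authors deposited log2 values, 1 per probe set and array. Per the submitters' processing notes the tools were RMA and Partek, whose versions and settings the sources used here do not give. RNA was amplified for 23 cycles before labelling, per the labels' protocols, which can add spread. The values have no detection calls or depth, and precision is limited by the number of arrays. A value below the array median of all 45141 probe sets was taken as near background, and raised to that median where a fold is given as a lower bound.

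Gene symbols came from the platform annotation, which gave 1 symbol to 28898 probe sets, several to 551 and none to 15692. Of those with 1 symbol, 28689 matched RefSeq by gene number and 0 symbols changed. A gene was its probe set with the highest mean and was tested if above the array median on at least 2 of 8 arrays. One model with 4 group means was fitted in R 4.3.3 with limma 3.58.1 (lmFit and eBayes, all arrays together, two-sided, 4 residual degrees of freedom), with Benjamini-Hochberg adjustment over the genes tested in each of 6 comparisons. The scripts were tested on simulated data. The alternatives were a replicate block (alone and without WT preproNK replicate 2), leaving out each array, 2 other normalizations, 2 other treatments of dim probe sets, 2 other choices of probe set, another estimate of spread, and array weights.

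The series design gives each replicate number its own processing date, so the numbers pair the samples. Deviations from the group means correlated between same-numbered arrays in all 6 pairs of groups, at r = 0.149 to 0.204 where KO preproNK was in the pair and 0.608 to 0.807 otherwise.

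The 7 genes, the lists and the markers were chosen with earlier results of these data known. The text names all 7 genes, up to 6 called genes of the pathway lists per comparison, up to 2 genes of each list with no call, and the 3 genes most correlated with each tested gene. List genes without a single-symbol probe set were not analysed here.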

Additional observations from a re-analysis of the deposited data

How the results depend on the processing

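Over 18 alternative settings, 375 of 432 differences of the 4 tested genes kept their sign and their side of the threshold, 9 lost a call, 16 gained one and 32 changed sign. The cause of these changes was not tested. The replicate block, which pairs the arrays by date, called Notch1 in the mean step (-1.89) and changed no other call of the 4 genes. With it, 2 of the 7 genes were called in the mean step, and 2, 8 and 14 other pathway genes in the step in WT, in KO and in the mean. Over all 11583 genes tested it called 67, 449 and 852 in these steps. With the block and without WT preproNK replicate 2, members called were 1 for the knockout in preproNK, 1 for the step in WT, 2 in KO and 3 in the mean, other pathway genes 8, 14 and 17 for the steps in that order, and the reversed values were -0.33 for Notch2 and -0.11 for Rbpj (knockout in preproNK) and -0.31 for Rbpj (interaction). Quantile normalization, a common median and SD, the mean over probe sets, and array weights each gave 2 members in the mean step. Over all genes they called 515, 471, 384 and 384 there. Array weights also gave 2 members in KO with 12 other pathway genes, beside 902 of all genes. Quantile normalization and the common median and SD gave 3 and 1 other pathway genes in WT, beside 73 and 38 of all genes. No filter, testing each probe set, and a robust trended spread gave 5, 4 and 5 in the mean. Beside these stood 296 of 17097 genes, 419 of 28898 probe sets and 391 of 11583 genes. With quantile normalization Notch1 and Notch2 gave -0.02 and -0.05 for the knockout in ALP and Notch2 -0.52 in preproNK; with the common median and SD, -0.08, -0.03 and -0.34. The mean over probe sets gave -0.04 for Dtx1 (knockout in ALP).

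Leaving out 1 array at a time, members called ranged from 0 to 2 for the knockout in preproNK, 0 to 1 for the step in WT and in KO, and 0 to 2 in the mean, and other pathway genes from 0 to 18, 0 to 7, 0 to 9 and 1 to 13. Signs turned in the knockout in ALP for Notch1 (-0.23 to 0.61), Notch2 (-0.25 to 0.59), Dtx1 (-0.21 to 0.38) and Rbpj (-0.43 to 0.81), in the knockout in preproNK for Notch2 (-0.61 to 0.92) and Rbpj (-0.37 to 1.08), in the step in WT for Notch2 (-0.13 to 1.40), Dtx1 (-0.07 to 1.28) and Rbpj (-0.44 to 1.01), and in the interaction for Notch2 (-0.78 to 0.75) and Rbpj (-0.56 to 0.89). A lone array left in a group is assumed to vary like the other groups.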
